A study of Mus musculus with 2 samples.

Results

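Brg1 occupancy was examined at 5 genes that encode subunits of Swi/Snf, the complex to which Brg1 itself belongs: *Smarca4*, *Smarca2*, *Smarcb1*, *Arid1a* and *Smarcc1*. They were chosen by their place in the genome, as 5 intervals on mm9 that span each gene, widened by 10 kb on each side. The widened intervals held 579 of the 2641865 windows of 1 kb that make up the genome. Both libraries came from primary mouse embryonic fibroblasts harvested at E13.5 from wild-type embryos on a mixed C57BL/6 and 129 background. The Brg1 ChIP library was made with a rabbit polyclonal antibody against SNF2β/BRG1, and the Input library came from the same kind of chromatin without an antibody. In both, nuclei were digested with micrococcal nuclease, which cuts between nucleosomes, and then briefly sonicated. The assay measures DNA and no expression, so the fibroblast label could not be checked against marker genes.

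Swi/Snf uses the energy of ATP to slide and evict nucleosomes. Each complex carries either Brg1, encoded by *Smarca4*, or its close relative Brm, encoded by *Smarca2*, as the ATPase. *Smarcb1* encodes Snf5, a core subunit whose loss is the hallmark of malignant rhabdoid tumours in humans. *Smarcc1* encodes Baf155, a scaffold subunit of the core. *Arid1a* encodes Baf250a, a DNA-binding subunit that defines the BAF form of the complex and is often mutated in human cancers. ChIP at these genes asks whether the ATPase is found on the genes of its own complex.

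The ChIP library held 13581267 tags and the Input library 5778620, of which 13215004 and 5608004 lay on the 19 autosomes. An average autosomal kilobase held 5.35 ChIP tags and 2.27 input tags. The ratio used throughout is the count of ChIP tags over that of input tags, divided by 2.36, the autosomal ChIP total over the input total, so that 1 is the autosomal average. Each group is 1 library, so no value has a replicate check. The tests therefore set the tags of one library against those of the other, and the exact 95% intervals (Clopper-Pearson) cover counting error only, since tags without molecular identifiers may not be independent molecules. The input lists up to 2 tags at a position on chromosome 9, which holds *Smarca4* and *Smarcc1*, and at most 1 on the other 18 autosomes, but no input position in the 5 widened intervals held 2.

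In each of these genes ChIP tags stood higher against input at the 5′ end than in the rest of the gene, so the promoter sequences are shown first. They are the 250 bases before the transcription start in RefSeq, on GRCm38.p6, a later build than the mm9 of the tags, and coordinates were not carried from one to the other. All 5 genes matched by symbol, and *Arid1a* has a pair of entries whose starts are 2784 bp apart. Sequences run 5′ to 3′ along the gene, and capitals mark every match, on either strand, to the 5 motifs searched, which are the GC-box GGGCGG, the CCAAT-box CCAAT, the AP-1 element TGANTCA, the cyclic AMP response element TGACGTCA and the Ets element CCGGAAG.
Smarca4, chr9:21615919-21616168, plus strand: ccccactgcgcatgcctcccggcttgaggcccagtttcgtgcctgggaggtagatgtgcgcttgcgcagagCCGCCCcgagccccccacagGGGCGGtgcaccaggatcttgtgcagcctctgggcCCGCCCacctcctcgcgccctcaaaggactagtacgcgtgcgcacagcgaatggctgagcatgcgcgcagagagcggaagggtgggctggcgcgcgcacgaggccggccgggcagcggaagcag
Smarca2, chr19:26604910-26605159, plus strand: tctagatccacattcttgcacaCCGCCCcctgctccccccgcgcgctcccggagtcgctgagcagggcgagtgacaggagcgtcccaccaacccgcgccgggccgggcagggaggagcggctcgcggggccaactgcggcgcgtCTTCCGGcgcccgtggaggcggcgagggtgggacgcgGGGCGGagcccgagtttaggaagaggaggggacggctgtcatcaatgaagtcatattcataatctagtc
Smarcb1, chr10:75921615-75921864, minus strand: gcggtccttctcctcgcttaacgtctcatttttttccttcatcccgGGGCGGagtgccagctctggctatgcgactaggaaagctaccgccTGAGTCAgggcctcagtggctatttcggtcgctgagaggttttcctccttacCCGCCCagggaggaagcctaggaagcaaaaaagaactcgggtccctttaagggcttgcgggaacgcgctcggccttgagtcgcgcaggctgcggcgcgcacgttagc
Arid1a, first entry, chr4:133756770-133757019, minus strand: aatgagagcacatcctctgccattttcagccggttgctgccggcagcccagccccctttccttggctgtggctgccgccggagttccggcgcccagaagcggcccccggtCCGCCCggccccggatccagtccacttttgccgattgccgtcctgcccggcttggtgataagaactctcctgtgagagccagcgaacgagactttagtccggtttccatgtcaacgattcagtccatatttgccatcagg
Arid1a, second entry, chr4:133753986-133754235, minus strand: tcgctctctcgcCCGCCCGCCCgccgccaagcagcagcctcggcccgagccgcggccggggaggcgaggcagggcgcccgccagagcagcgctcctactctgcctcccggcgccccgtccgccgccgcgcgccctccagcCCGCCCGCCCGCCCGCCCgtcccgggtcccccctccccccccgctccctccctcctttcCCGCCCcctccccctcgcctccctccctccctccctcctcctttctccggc
Smarcc1, chr9:110131774-110132023, plus strand: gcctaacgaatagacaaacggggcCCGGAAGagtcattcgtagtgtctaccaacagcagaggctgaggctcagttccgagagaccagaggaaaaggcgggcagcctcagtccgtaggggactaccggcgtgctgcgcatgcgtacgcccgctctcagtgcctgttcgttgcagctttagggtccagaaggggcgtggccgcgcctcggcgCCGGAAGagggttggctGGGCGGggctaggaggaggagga

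These promoters were rich in CpG dinucleotides. They held 18 to 33 CG in 250 bases, against a median of 6 over 32851 RefSeq promoter entries of the same length. The fewest, 18 in the first *Arid1a* entry, were still more than in 78.3% of all entries, and the 33 of the second were more than in 96.0%. GGGCGG was found in all 6 entries printed, and in 32.7% of all entries. Its matches numbered 3 in *Smarca4*, 2 in *Smarca2*, 2 in *Smarcb1*, 1 in *Smarcc1*, and 1 and 7 in the first and second entries of *Arid1a*, where some overlap. CCGGAAG occurred in *Smarca2* and, as 2 copies, in *Smarcc1*, and in 6.91% of all entries. TGANTCA occurred in *Smarcb1* alone among the 5, and in 6.75% of all entries. CCAAT, held by 33.8% of all entries, and TGACGTCA, held by 1.55%, had no match in these windows.

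At the 5′ end of every one of the 5 genes the ChIP/input ratio was higher than in the rest of the same gene. The 5′ window was set at 2 kb on each side of the edge where the gene begins, which is the left edge of *Smarca4*, *Smarca2* and *Smarcc1* and the right edge of *Smarcb1* and *Arid1a*. The intervals are rounded and are 0.875 to 1.85 kb longer than the genes in RefSeq on GRCm38, so the outermost start lies within about that distance of its edge. The second start of *Arid1a* lies 2784 bp further inside, so that tags around it may count with the rest of the gene. The ratio in the 5′ window over that in the rest of the gene ranged from 1.88 in *Smarcc1* to 2.90 in *Smarcb1*, and the unadjusted p was under 0.05 in 5 of 5 (Fisher's exact test, two-sided). The order of the genes was another at each of the other widths tried: with 5 kb on each side *Smarcb1* was the lowest, at 1.502 (Fisher's exact test, p = 0.106), and *Arid1a* the highest, at 2.75. Against 4 kb tiles of all autosomes, of which 1.66% were called higher, the 5′ windows of *Smarca2*, *Smarcb1* and *Arid1a* were called higher and those of *Smarca4* and *Smarcc1* were not. Tiles and 5′ windows were called higher where the ratio reached 1.5 and the p of a two-sided exact binomial test, after Benjamini-Hochberg adjustment over all tiles, was below 0.05. Promoters of other genes were not located on mm9, so whether these 5 differ from other promoters was not tested.

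**Figure D1:**
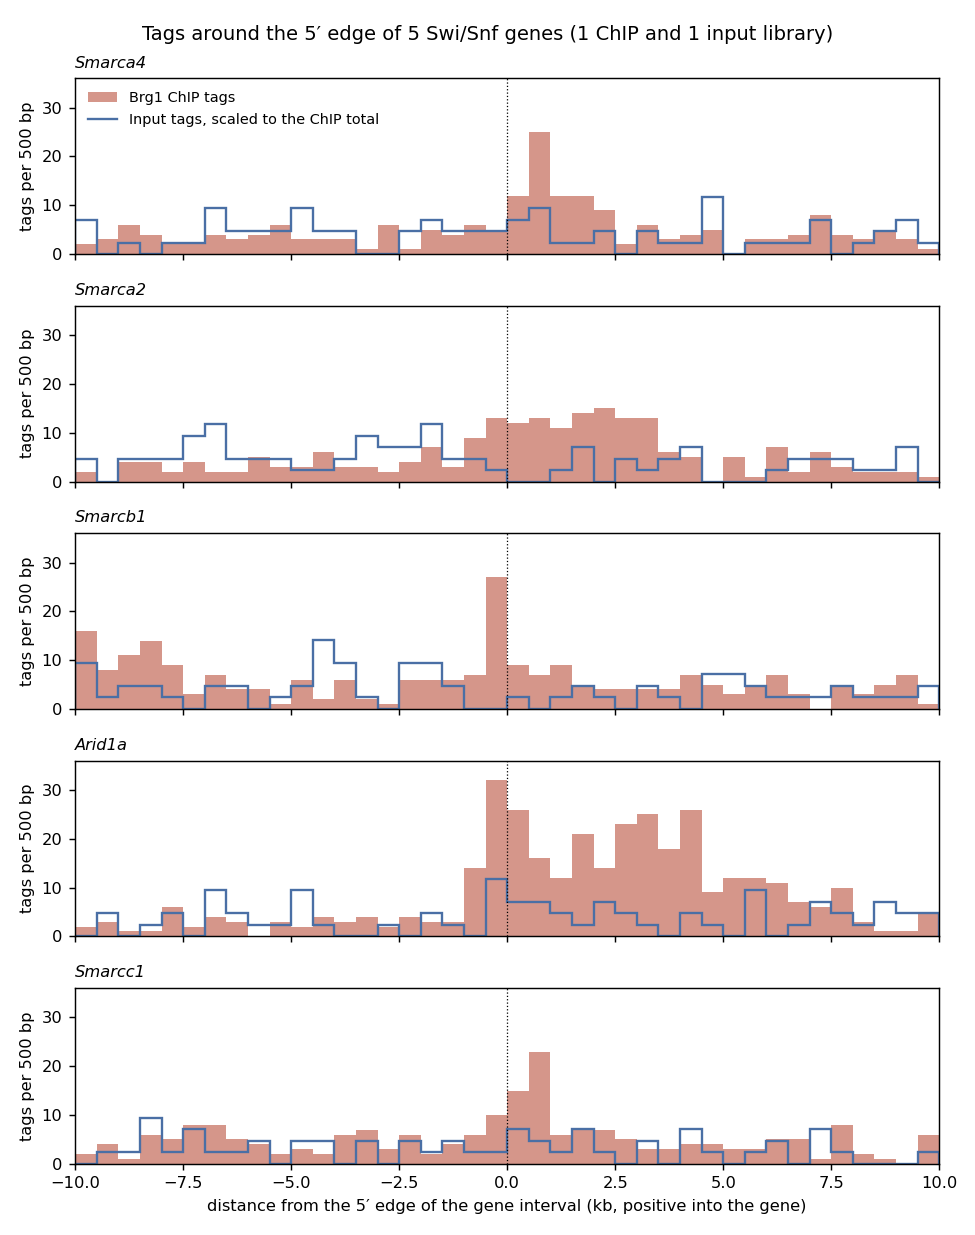
Tags per 500 bp within 10 kb of the 5′ edge of each gene, with Brg1 ChIP tags as filled steps and input tags multiplied by 2.36 as a line. ChIP tags stand above the scaled input next to the edge in all 5 genes. The block of adjacent bins with at least 2 times the autosomal mean of ChIP tags, whatever the input, is 2.5 kb wide in Smarca4. It is 3.5 kb wide in Smarcc1, 4 kb in Smarcb1, 5 kb in Smarca2 and 9 kb in Arid1a.

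*Smarca4*, the gene of Brg1 itself, lies on the plus strand of chromosome 9 at 21420000 to 21509000. Its 5′ window held 81 ChIP tags and 18 input tags, which gave a ratio of 1.91 (1.14 to 3.38; adjusted p by the exact test = 0.252). The ratio was 2.10 times that of the rest of the gene (1.22 to 3.79, Fisher's exact test, p = 0.00422). From 0.5 to 1 kb inside the gene, 25 ChIP tags stood against 4 input tags, the most ChIP tags of any 500 bp within 5 kb of the edge, against a mean of 2.67 over the autosomes. The adjacent bins kept at least 2 times that mean from 0 to 2.5 kb inside, with 70 ChIP and 11 input tags in all, and the first kilobase inside the edge held 37 ChIP and 7 input tags, the most ChIP tags of any kilobase in this locus. The kilobase with the highest lower bound was the one from 1 to 2 kb, at 21421000 to 21421999, with 24 ChIP tags against 2 and a ratio of 5.09 (1.26 to 44.5; adjusted p by the exact test = 0.406). Beyond its 5′ end *Smarca4* was flat when averaged over long stretches. The rest of the gene had a ratio of 0.909 (0.796 to 1.04), and when its length was cut into 3 equal stretches these lay at 0.849, 0.962 and 0.914. In the last of these, the 2 kb from 70 to 72 kb held 32 ChIP tags and 6 input tags, and neither of its kilobases was called.

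*Smarca2*, the gene of Brm, lies on the plus strand of chromosome 19 at 26679000 to 26854000 and is the longest of the 5. Its 5′ window held 82 ChIP tags and 14 input tags, which gave a ratio of 2.49 (1.40 to 4.75; adjusted p by the exact test = 0.0471). That call was close to its threshold and was lost under 3 of 8 other settings, with an adjusted p from 0.0198 to 0.0737 over all of them. The ratio was 2.73 times that of the rest of the gene (1.52 to 5.27, Fisher's exact test, p = 0.000229). The block of dense ChIP tags ran from 1 kb before the edge to 4 kb inside, with 119 ChIP and 12 input tags, and had no sharp maximum: no 500 bp bin in it exceeded 15 tags. Its kilobase with the highest lower bound, at 26679000 to 26679999, had 25 ChIP tags with no input tag. With that 0 set to a floor of 3 tags the ratio was 3.54 times the autosomal average. The exact interval, from the 0 itself, began at 2.67 (adjusted p by the exact test = 0.0601). Upstream of the 5′ window the ratio was 0.562 (0.359 to 0.886) over 8 kb, from 49 ChIP tags against 37.

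*Smarca2* also had a second place of dense ChIP tags, far inside the gene and towards its 3′ end. The 10 kb window at 26820000 to 26829999, which lies 141 to 151 kb from the 5′ edge, held 157 ChIP tags and 27 input tags, which gave a ratio of 2.47 (1.63 to 3.86), and was called higher (adjusted p by the exact test = 0.000243). Within it, 4 adjacent kilobases from 142 to 146 kb held 27, 37, 20 and 22 ChIP tags against 2, 3, 2 and 4 input tags. Their sum, over a stretch bounded by its own high ChIP counts, was 106 ChIP tags and 11 input tags, and the 37 tags were the most in any kilobase of the locus. Between both dense places, from 4 to 142 kb, a stretch whose borders were set by leaving them out, the ratio was 0.764. The lowest 3 adjacent windows of 10 kb, 51 to 81 kb inside, held 118 ChIP tags and 100 input tags, giving a ratio of 0.501 in windows picked for being lowest, and none of the 3 was called lower.

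*Smarcb1*, the gene of Snf5, lies on the minus strand of chromosome 10 at 75359000 to 75385000 and is the shortest. Its 5′ window held 76 ChIP tags and 10 input tags, which gave a ratio of 3.23 (1.66 to 7.00; adjusted p by the exact test = 0.0110). The ratio was 2.90 times that of the rest of the gene (1.40 to 6.60, Fisher's exact test, p = 0.00226). ChIP tags formed a narrow maximum, with 27 tags against 0 in the 500 bp just outside the edge and 9 or fewer in each neighbouring bin within 5 kb. Adjacent bins kept at least 2 times the autosomal mean over a wider block, from 2.5 kb before the edge to 1.5 kb inside, with 77 ChIP and 12 input tags. The kilobase that holds the maximum, at 75385000 to 75385999, had 34 ChIP tags with no input tag. With that 0 set to a floor of 3 tags the ratio was 4.81 times the autosomal average. The exact interval, from the 0 itself, began at 3.70, and the kilobase was called higher on that 0 (adjusted p by the exact test = 0.0130). Input tags were sparse here, at 2.50 per kb in the 5′ window against 3.59 over the widened interval. With the input raised to that mean, rounded up to a whole tag for the window, the 5′ ratio was 2.15 (1.23 to 4.03). It was then no longer called (adjusted p by the exact test = 0.157, and 0.000883 to 0.162 over all settings). With that input it was 1.93 times that of the rest of the gene (1.02 to 3.84). With a 5′ window of 5 kb to each side the ratio was 1.59 and not called, while with 1 kb to each side it was 21.2 (3.64 to 855). The far end of the upstream flank, 8 to 10 kb before the edge, held 25 and then 24 ChIP tags per kilobase, against 4 and 5 input tags. Neither kilobase was called (adjusted p by the exact test = 0.746 and 0.993), and the upstream flank as a whole was at 1.33 (0.883 to 2.04). On GRCm38 the neighbour on that side is *Mmp11*, a matrix metalloproteinase gene, within 10 kb, and *Derl3* is within 10 kb on the other side.

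*Arid1a*, the gene of Baf250a, lies on the minus strand of chromosome 4 at 133234000 to 133313000 and had the highest ChIP density of the 5. Its 5′ window held 127 ChIP tags and 17 input tags, which gave a ratio of 3.17 (1.90 to 5.61; adjusted p by the exact test = 0.000174), and 0.0956% of autosomal 4 kb tiles held more ChIP tags. The ratio was 2.28 times that of the rest of the gene (1.34 to 4.10, Fisher's exact test, p = 0.00134). The dense block was wide: from 1 kb before the edge to 8 kb inside, every 500 bp bin held at least 2 times the autosomal mean, 294 ChIP and 33 input tags in all, in a block bounded by its own high ChIP counts. Kilobase by kilobase from the outer end it held 46, 42, 33, 37, 43, 35, 24, 18 and 16 ChIP tags, against 5, 6, 3, 5, 1, 3, 4, 1 and 5 input tags. The kilobase from 3 to 4 kb inside, at 133309000 to 133309999, was called higher with 43 ChIP tags and 1 input tag, for a ratio of 18.2 (3.10 to 737; adjusted p by the exact test = 0.00979).

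Further ChIP maxima lay in and beyond *Arid1a*. The kilobase 27 to 28 kb inside, at 133285000 to 133285999, had 35 ChIP tags with no input tag. With that 0 set to a floor of 3 tags the ratio was 4.95 times the autosomal average. The exact interval, from the 0 itself, began at 3.82, and the kilobase was called higher on that 0 (adjusted p by the exact test = 0.0112). Between it and the 5′ block, with both left out, the ratio was 1.14, and over the remaining 51 kb of the gene it was 1.16. Inside those 51 kb, the 2 kb from 68 to 70 kb held 51 ChIP tags and 11 input tags, and neither of its kilobases was called. The kilobase at 133228000 to 133228999, 5 to 6 kb past the 3′ edge, held 47 ChIP tags and 2 input tags, giving a ratio of 9.97 (2.61 to 84.8; adjusted p by the exact test = 0.0136), the most ChIP tags of any kilobase in the 5 loci. On GRCm38 the protein-coding neighbour on that side is *Pigv*, an enzyme gene of GPI anchor synthesis, within 10 kb. To which of the genes this maximum belongs was not tested. The flank of 10 kb that holds it had a ratio of 2.25 (1.57 to 3.31), while the opposite flank, upstream of the 5′ window, was at 0.983 (0.562 to 1.78). In windows of 10 kb, 4 at *Arid1a* were called higher, and they hold the 5′ block and both called kilobases outside it. That at 133310000 to 133319999 had a ratio of 2.28 (1.59 to 3.34; adjusted p by the exact test = 0.000123), and the next, at 133300000 to 133309999, one of 2.28 (1.58 to 3.37; adjusted p by the exact test = 0.000155). The window at 133280000 to 133289999 had a ratio of 2.47 (1.56 to 4.08; adjusted p by the exact test = 0.00149). The window at 133220000 to 133229999, which reaches 4 kb beyond the widened interval, had one of 1.83 (1.28 to 2.66; adjusted p by the exact test = 0.0146).

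*Smarcc1*, the gene of Baf155, lies on the plus strand of chromosome 9 at 110034000 to 110144000. Its 5′ window held 73 ChIP tags and 14 input tags, which gave a ratio of 2.21 (1.24 to 4.25; adjusted p by the exact test = 0.152). The ratio was 1.88 times that of the rest of the gene (1.03 to 3.66, Fisher's exact test, p = 0.0405), the weakest of the 5, and with 1 tag per strand within 5 bp it was 1.81 (p = 0.0513). The densest 500 bp, from 0.5 to 1 kb inside, held 23 ChIP tags against 2. Adjacent bins kept at least 2 times the autosomal mean from 1 kb before the edge to 2.5 kb inside, with 74 ChIP and 12 input tags. The kilobase at 110034000 to 110034999, just inside the edge, held 38 ChIP tags and 5 input tags, giving a ratio of 3.23 (1.27 to 10.5; adjusted p by the exact test = 0.323). The 10 kb window that contains the edge, at 110030000 to 110039999, held 127 against 26 and was called higher, with a ratio of 2.07 (1.35 to 3.29; adjusted p by the exact test = 0.0133). With a 5′ window of 5 kb to each side the 5′ end was called as well, at a ratio of 1.84 (adjusted p by the exact test = 0.0457). The rest of the gene was slightly above the autosomal average, at 1.18 (1.03 to 1.35), with little change along its length: its first, middle and last stretches lay at 1.08, 1.22 and 1.26.

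**Figure D2:**
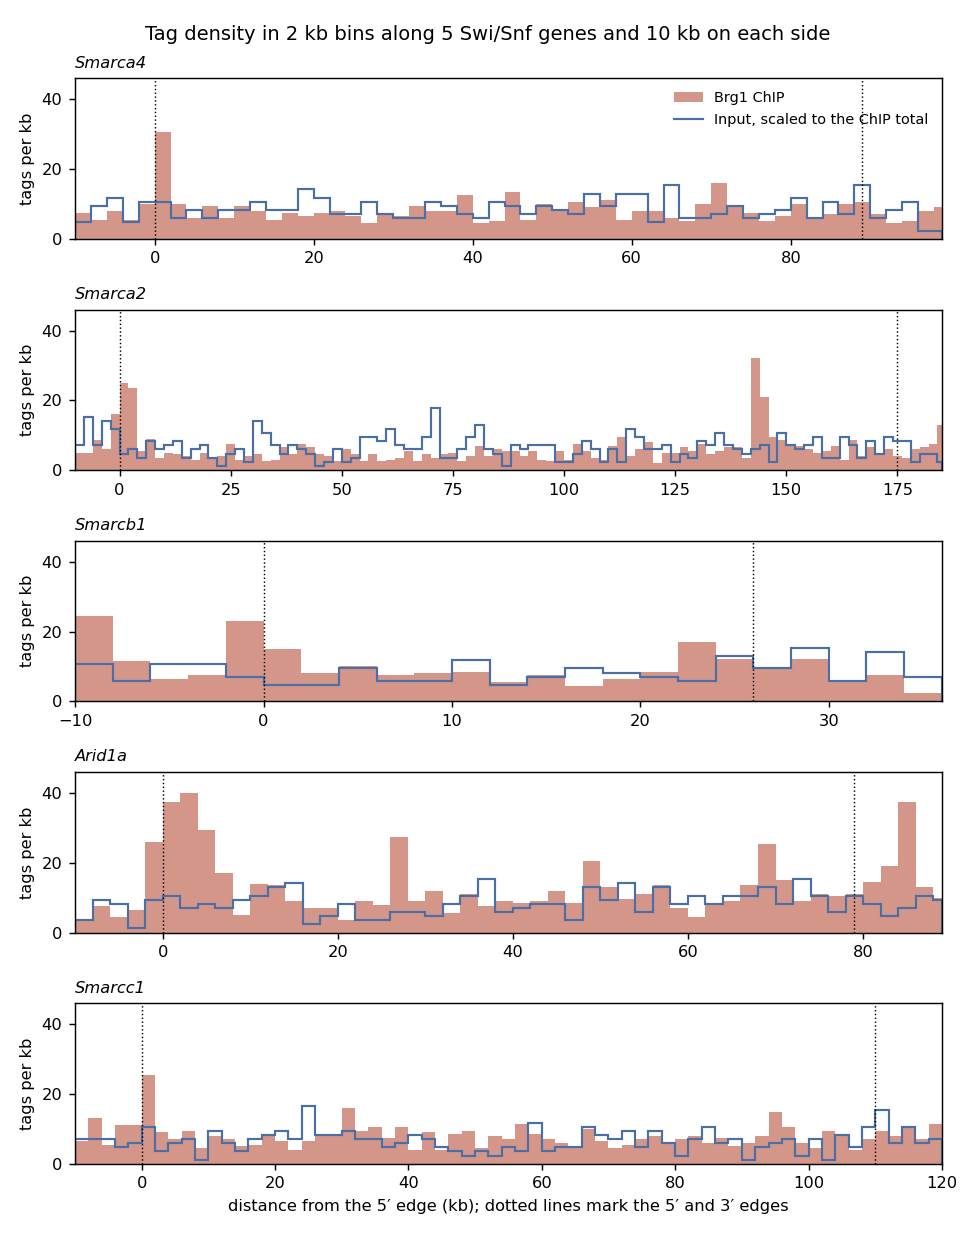
Tags per kb in bins of 2 kb along each widened interval, oriented from the 5′ edge at 0, with Brg1 ChIP filled and input multiplied by 2.36 as a line. Besides the 5′ blocks, the bins densest in ChIP tags lie 142 to 146 kb inside Smarca2, 26 to 28 and 68 to 70 kb inside Arid1a and past its 3′ edge, and at the outer end of the upstream flank of Smarcb1. No kilobase was called in those of Smarca2 and Smarcb1, nor at 68 to 70 kb in Arid1a.

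Among themselves the 5′ windows overlapped in their intervals at 2 kb on each side, and *Arid1a* stood above the other genes at 5 kb. At 2 kb, ChIP density in them was 18.3 to 31.8 tags per kb, or 3.41 to 5.94 times the autosomal mean, and input density was 2.50 to 4.50 tags per kb, or 1.10 to 1.98 times. Input density was thus above the mean over all autosomal kilobases, empty ones included, in each 5′ window. In *Smarcb1* it was below that of its own widened interval, at 2.50 against 3.59 tags per kb. There 38.9% of autosomal 4 kb tiles held more input tags. In the other genes it was above that of their own widened intervals. In none of the 10 pairs did the exact interval of the ratio of ratios exclude 1 at 2 kb; between *Smarca4* and *Smarcb1*, the lowest and the highest, it ran from 0.229 to 1.46. With 5 kb on each side 4 of the 10 excluded 1, and *Arid1a* was at 2.50 times *Smarca4* (1.45 to 4.33), 2.18 times *Smarcb1* (1.24 to 3.83), 1.89 times *Smarca2* (1.09 to 3.29) and 1.88 times *Smarcc1* (1.04 to 3.36). With 1 kb it was 1 of 10, in which *Smarcb1* stood above *Smarca4*. The intervals of the pairs were not adjusted for the number of pairs or widths. These other widths were compared after seeing the data. The share of autosomal 4 kb tiles with a higher ratio was 9.85% for *Smarca4*, 6.97% for *Smarcc1*, 5.26% for *Smarca2*, 2.92% for *Arid1a* and 2.78% for *Smarcb1*. In these shares a tile with no input tag counts as higher, while the shares given for whole intervals leave such tiles out. The ChIP file lists at most 2 tags at a position, so stacks of tags could not be seen in it. With 1 tag per strand within 5 bp the 5′ ratio was 2.77 in *Arid1a*, still called, and 2.83 in *Smarcb1*, no longer called. Plus-strand tags made up 46.5% to 67.1% of the ChIP tags in these windows, with the highest share in *Smarcb1*.

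**Figure D3:**
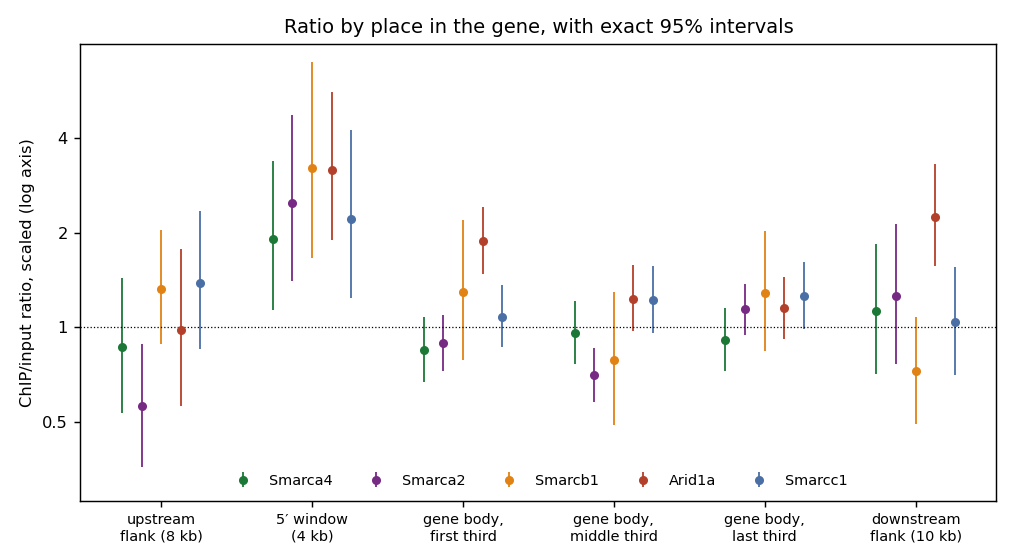
ChIP/input ratio (log axis, 1 is the autosomal average) by place in each gene, with exact 95% intervals as bars. The 5′ windows lie between 1.91 and 3.23, and outside them the first of 3 equal stretches and the downstream flank of Arid1a, at 1.89 and 2.25, are the points highest above 1. That first stretch holds the inner part of the 5′ block of Arid1a.

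Over the rest of the gene, where tag counts were larger, intervals excluded 1 in more pairs than at the 5′ windows of 2 kb on each side. Outside the 5′ window the ratio was 1.39 in *Arid1a* (1.22 to 1.59), 1.18 in *Smarcc1*, 1.11 in *Smarcb1* (0.854 to 1.46), and 0.909 in both *Smarca4* and *Smarca2*. Of 10 pairs the exact interval excluded 1 in 4, again without adjustment for the number of pairs. In these 4, *Arid1a* and *Smarcc1* each stood above *Smarca4* and *Smarca2*. *Arid1a* was at 1.53 times *Smarca4* (1.26 to 1.85) and 1.53 times *Smarca2* (1.28 to 1.83). In *Arid1a* the rest of the gene begins 2 kb inside the edge, so it holds the inner part of the 5′ block, which runs to 8 kb. Outside that block and the called kilobase, *Arid1a* was at 1.14 (0.851 to 1.54) from 8 to 27 kb. From 28 to 79 kb it was at 1.16 (0.989 to 1.37). The pairs were not compared with the block left out. The first of the 3 equal stretches of *Arid1a*, which holds the same part of the block, stood at 1.89 (1.48 to 2.42), against 1.23 and 1.15 in the others. In *Smarca2* the middle stretch was the lowest, at 0.703 (0.577 to 0.859), and the last, which contains the internal maximum, was at 1.14 (0.947 to 1.38).

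Over the whole widened interval, *Arid1a* and *Smarcc1* were called higher, and *Smarca4*, *Smarca2* and *Smarcb1* were not. For a whole interval the call asked for a ratio of 1.2 or more, with p adjusted over all autosomal tiles of its own width. *Arid1a* held 1296 ChIP tags and 357 input tags, which gave a ratio of 1.54 (1.37 to 1.74; adjusted p by the exact test = 4.19e-12), with 15.7% of tiles of 99 kb called higher, 29.7% called lower and 2.56% at a higher ratio. *Smarcc1* held 1044 and 364, and its ratio was 1.22 (1.08 to 1.38; adjusted p by the exact test = 0.00354), with 15.0% of tiles of 130 kb called higher, 31.5% called lower and 14.0% at a higher ratio, and it lay below their 95th percentile of 1.39. *Smarcb1* held 458 and 165, and its ratio was 1.18 (0.984 to 1.42; adjusted p by the exact test = 0.168), with 12.2% of 46 kb tiles called higher and 15.6% lower. *Smarca4* held 901 and 396, and its ratio was 0.966 (0.857 to 1.09; adjusted p by the exact test = 0.667), with 15.3% of 109 kb tiles called higher and 30.6% lower. *Smarca2* held 1188 and 536, and its ratio was 0.941 (0.849 to 1.04; adjusted p by the exact test = 0.318), with 14.0% of 195 kb tiles called higher and 30.2% lower. The 4 kb at the 5′ end made up 8.99% of the ChIP tags in the widened *Smarca4* interval and 4.55% of its input tags; for *Smarcb1* these shares were 16.6% and 6.06%.

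**Figure D4:**
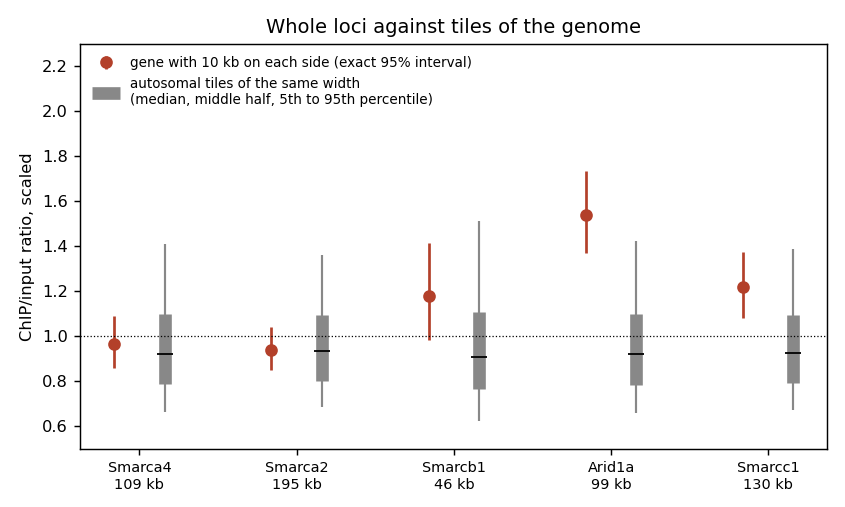
ChIP/input ratio of each gene with 10 kb on each side (points, exact 95% interval), beside the autosomal tiles of the same width (line at the median, bar from the lower to the upper quartile, thin line from the 5th to the 95th percentile). Only Arid1a, at 1.54, lies above the 95th percentile of its tiles, 1.42.

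The genes were also set against their neighbourhoods. The 100 kb on each side of *Arid1a* together had a ratio of 1.42 (1.29 to 1.56), and *Arid1a* stood at 1.09 times these surroundings (0.933 to 1.27). Against 500 kb on each side it stood at 1.29 times (1.14 to 1.47). *Smarca4* was below its surroundings, at 0.741 times over 100 kb (0.639 to 0.859) and 0.811 times over 500 kb (0.715 to 0.921). *Smarca2*, *Smarcb1* and *Smarcc1* were at 1.15, 1.16 and 1.10 times their surroundings of 100 kb, with exact intervals that included 1. Over 500 kb the intervals of *Smarca2*, at 1.13 (1.01 to 1.27), and *Smarcb1*, at 1.21 (1.002 to 1.46), did not include 1, and that of *Smarcc1*, at 1.12 (0.983 to 1.27), did.

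In windows of fixed position, 4 of the 316 kilobases with at least 10 tags were called higher, or 1.27%, against 0.380% of such windows in the genome. They were the 3 at *Arid1a* and the 1 at *Smarcb1* given above. None was called lower (exact binomial test), against 0.00666% in the genome, and 1 was called lower when p was taken from summed probabilities. At an unadjusted p under 0.05 in the exact test, 6 of the 316 stood lower and 21 higher. The genome's shares at that unadjusted threshold were not counted. In windows of 10 kb, 6 of 57 were called higher, or 10.5%, against 3.98% in the genome: 4 of 10 at *Arid1a*, 1 of 19 at *Smarca2*, 1 of 13 at *Smarcc1*, and 0 of 11 at *Smarca4* and 0 of 4 at *Smarcb1*, which had 1 each at an unadjusted p under 0.05. None of the 57 was called lower (exact binomial test), against 1.11% in the genome. At an unadjusted p under 0.05 in that test, 4 of the 57 stood lower and 12 higher. The remaining 263 kilobases, 131 of them at *Smarca2*, held too few tags to test. Calls at 1 kb rested on low input counts. In another setting the input of a window was raised, where lower, to the mean of its 10 kb surroundings, rounded up to a whole tag. Of the 4, 0 remained, in a setting that left 35 in the genome.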

How the data were processed

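Per the labels' protocols, chromatin of primary fibroblasts was digested with micrococcal nuclease, briefly sonicated and sequenced after Helicos guidelines. The submitters' processing notes name Bowtie and mm9; versions and any filter on repeated tags are not given in the sources used here. The deposited values are counts of tags per chromosome, strand and position, with no normalization. Whether positions start at 0 or 1 is not stated, nor whether a position on the minus strand is a tag's start or its leftmost base. Positions may thus be off by 1 bp, and on the minus strand by a read length.

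Tags were moved 75 bp along their strand. The two-sided exact binomial p-values were 2 times the smaller tail, adjusted by Benjamini-Hochberg over all windows or tiles of the genome. Windows of 1 kb and 10 kb needed at least 10 tags and a ratio of at least 1.5 or at most its inverse. Windows are given from their first to their last position; gene intervals leave out their end position. Where a kilobase had no input tag, a floor of 3 was used for the printed ratio only. The tests, calls and exact intervals used the 0. By the same test a kilobase of *Arid1a* with 35 ChIP and 3 input tags was not called (adjusted p by the exact test = 0.177). All 5 genes are described, with the kilobase of the highest lower bound and every called window; members, tests and alternatives were chosen with earlier results of these data known. Strands came from the RefSeq promoter table on GRCm38.p6; neighbours are protein-coding genes by order on that build. The 2 sides of the surroundings of *Smarca4* are not reported here. The other Swi/Snf genes set out for description are not analysed here, since no mm9 annotation was used. Steps were tested on simulated data. Python 3.11.15, numpy 2.4.6, scipy 1.17.1, pandas 2.3.3 and matplotlib 3.10.9 were used.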

Additional observations from a re-analysis of the deposited data

How the results depend on the processing

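Of 162 values under other settings, 146 kept their direction and their side of the threshold (counts, within 1.5 times; the ratio to the surroundings, inside its interval), 10 lost a call, 5 gained one, 1 moved and 0 reversed. Of the 146, at least 15 could not change, since chromosome totals cancel in ratios within a locus and windows with 0 tags add no tags. Further values stayed the same because a setting touched no tag there. Leaving out called kilobases changed nothing at *Smarca4*, *Smarca2* and *Smarcc1*, which had none. Input held at or above its interval mean changed 5′ ratios at *Smarcb1* only, since it was already above that mean in the other genes. All 40 for whole intervals were kept. The 5′ ratio of *Smarca2* lost its call with totals of its own chromosome (2.40), at most 1 tag per position (2.48; main value 2.49) and 1 tag per strand within 5 bp (2.43). That of *Smarcb1* lost it with 1 tag per strand within 5 bp (2.83), a window of 5 kb to each side (1.59) and input held at or above its interval mean (2.15), and that of *Smarcc1* gained one with 5 kb (1.84). With 1 kb to each side the ratios were 21.2 in *Smarcb1* (3.64 to 855), 6.65 in *Smarca2* (2.14 to 33.4) and 3.27 in *Smarcc1* (1.49 to 8.53), with the calls as before. The first 2 of these rest on very few input tags. The kilobases just outside and just inside the edge held 0 and 1 in *Smarcb1*, and 3 and 0 in *Smarca2*. Over the rest of the gene, the 5′ ratio missed p under 0.05 in *Smarcb1* with 5 kb (1.502) and in *Smarcc1* with 1 tag per strand within 5 bp (1.81). *Arid1a* stood at 1.29 times surroundings of 500 kb. The 4 higher kilobases were 1 with 1 tag per strand within 5 bp, 1 of 78 tested at *Arid1a*, against 0.0847% in the genome. With windows of 2 kb they were 7, against 0.802% in the genome. *Arid1a* had 4 of 49, *Smarca2* 2 of 90, *Smarcb1* 1 of 22, *Smarcc1* 0 of 65 and *Smarca4* 0 of 54. With at least 20 tags they were 13, where 19.4% of the genome's windows were called. *Arid1a* had 7 of 28, *Smarca2* 4 of 9, *Smarcb1* 1 of 5, *Smarcc1* 1 of 6 and *Smarca4* 0 of 5. With input held at or above its 10 kb mean they were 0, against 0.00496% in the genome. The 0 lower became 1 with unmoved tags and 1 with p from summed probabilities. The summed probabilities and the interval mean of the input were alternatives chosen after seeing the data. The causes were not tested. No paired analysis was possible because the labels give a single ChIP and a single Input sample. At 2.27 input tags on average in a kilobase, 263 of the 579 kilobases held too few tags to test.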
